A study of Mus musculus with 12 samples.

Results

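A set of 10 transcription factor genes that direct the making of granulocytes was followed through neutrophils of bone marrow (BM) and peritoneum (PT): Cebpa, Cebpb, Cebpd, Cebpe, Gfi1, Spi1, Runx1, Irf8, Myb and Myc. They are 10 of the 28987 genes in the deposited table and were chosen by name, with earlier results of these data known. For 9 the table gives this symbol, and Spi1 stands there under its older symbol Sfpi1 and was found by its Ensembl gene ID. All 10 were measured well enough to be tested, with at least 1 TPM (the share of a transcript in its library, corrected for transcript length and scaled to the same total) in at least 3 of 12 libraries. The FVB mice were wild-type (WT) or carried MRP8-Bcl2, a human BCL2 transgene driven by regulatory regions of the myeloid gene MRP8, and each combination of tissue and genotype has 3 libraries (BM WT and BM Bcl2 from marrow, PT WT and PT Bcl2 from the peritoneum). All mice had received 2 mL thioglycollate intraperitoneally, which draws neutrophils into the peritoneum, so the marrow was also that of treated animals. The labels place collection at 6 h, the study's methods at other times, and the labels name macrophages as source cells where the study describes sorted neutrophils. Ages, sexes and any pooling of mice were not given in the sources used here.

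Granulocytes arise from myeloid progenitors through promyelocytes and myelocytes, which still divide, to metamyelocytes and band and segmented cells, which do not. PU.1 (encoded by Spi1) and C/EBPα commit progenitors to the myeloid line, GFI1 and IRF8 act on opposite sides of the choice between granulocyte and monocyte, and C/EBPε drives the late granule programme. C/EBPβ is known for granulopoiesis under stress, and MYB and MYC for proliferation of immature cells.

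The libraries differed in ways that bear on these genes. A read was estimated to be worth 0.343 to 1.614 TPM on a transcript of 1000 nt. On longer transcripts it was worth less, such as 0.074 to 0.35 TPM on the longest of Myb. The lowest values of the members therefore rested on few reads. The 108 genes whose transcripts hold 31 or more A or T in a row (homopolymer genes) took 8.9 to 65.6% of a library's TPM, and the median log2 fold change over all tested genes, PT against BM, was 0.22 in WT and -1.02 in Bcl2. Changes of Cebpb, Cebpd, Myb and Spi1 are therefore given below also relative to the median. For the others in Bcl2 the relative changes were -1.29 (Cebpa), -3.8 (Cebpe), -1.58 (Gfi1), -2.42 (Irf8), -1.17 (Myc) and 0.58 (Runx1). In WT they were 1.67, -2.51, -2.33, -0.71, 0.76 and 0.42, in that order. Mouse Bcl2, to which transgene reads can be assigned, had 166, 224 and 333 TPM in the 3 BM Bcl2 libraries and 82.8 and 58.6 TPM in libraries 7 and 8 of PT Bcl2, but 0.695 TPM in library 9, within the 0.219 to 2.37 TPM of the WT libraries. Library 9 was kept as labelled, and results are given also without it where they change. The neutrophil genes S100a8 and Csf3r were present in all 12 libraries, at 4495 TPM or more and 132 TPM or more. Ly6g was listed at 0 in library 12 and at 13.1 to 1266 TPM in the others. Of 6 neutrophil markers 3 were called lower in PT over the mean of both genotypes and 1 (Csf3r) higher. Mean levels in BM and in PT were 94039 and 13907 TPM for S100a8, 112511 and 15220 TPM for S100a9 and 732 and 45.5 TPM for Ly6g, and the call of S100a8 was lost after quantile normalization. With centring and with homopolymer genes left out 3 of the 6 were called lower and 3 higher. The part of this fall in the members' changes was not tested. Of markers of other cells, Cd34, Flt3, C1qa, Gata1, Klf1 and Epx were too low to be tested, whereas the progenitor markers Kit and Cd27 had 3.15 to 70.5 TPM and 0 to 22.0 TPM and the T cell marker Cd3d 5.22 to 174 TPM. None of these 3 was called by limma over both genotypes, and their adjusted p ran from 0.396 (Cd27) to 0.934 (Kit). Over the mean of both genotypes 2 of 6 B cell markers, 1 of 8 macrophage markers and 2 of 6 eosinophil and mast cell markers were called higher in PT. Their summed TPM ran, in BM and in PT, from 23.7 to 112 and from 48.9 to 309 for B cells, from 14.7 to 102 and from 18.2 to 139 for macrophages, and from 7.45 to 21.2 and from 14.2 to 557 (library 12) for eosinophils and mast cells. Of 7 monocyte and dendritic cell markers 2 were called lower in PT over the same mean and 1 higher. The sum of these 7 ran from 376 to 1414 TPM in BM and from 41.7 to 104 TPM in PT. In it Ly6c2 had 325 to 1187 TPM in BM and 22.7 to 60.0 TPM in PT. The part of such cells in the members' values was not tested.

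Cebpb was higher and Cebpe and Myb were lower in PT than in BM neutrophils, and over the mean of both genotypes these 3 calls held under every scaling tried and without any single library. Each library's values and the group means are shown in the plot of levels by group, and fitted changes are log2 fold changes of TPM + 1 from limma with Benjamini-Hochberg adjustment over 13456 genes. Calls required an adjusted p under 0.05 together with at least a 2-fold change. Over the mean of both genotypes, 1 of the 10 members was called higher (Cebpb), beside 5.13% of all tested genes, and 4 were called lower (Cebpe, Gfi1, Irf8 and Myb), beside 14.1%. The median change of the members was -0.49, against -0.40 over all tested genes. In MRP8-Bcl2 mice 4 members were called lower (Cebpa, Cebpe, Irf8 and Myb), beside 19.1% of all tested genes, and 0 higher, beside 2.31%, where Cebpb was higher at an unadjusted p under 0.05. In WT mice 0 members were called in either direction by limma, beside 1.59% of all tested genes called higher and 1.22% lower. At an unadjusted p under 0.05 there were 2 higher (Cebpa and Cebpb) and 3 lower (Cebpe, Gfi1 and Myb). At that p and at least 2-fold, 1371 of the 13456 tested genes were higher in WT and 850 lower. In Bcl2 609 were higher and 4397 lower. In bulk RNA, fewer cells expressing a gene and less of its RNA per cell cannot be told apart.

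**Figure D1:**
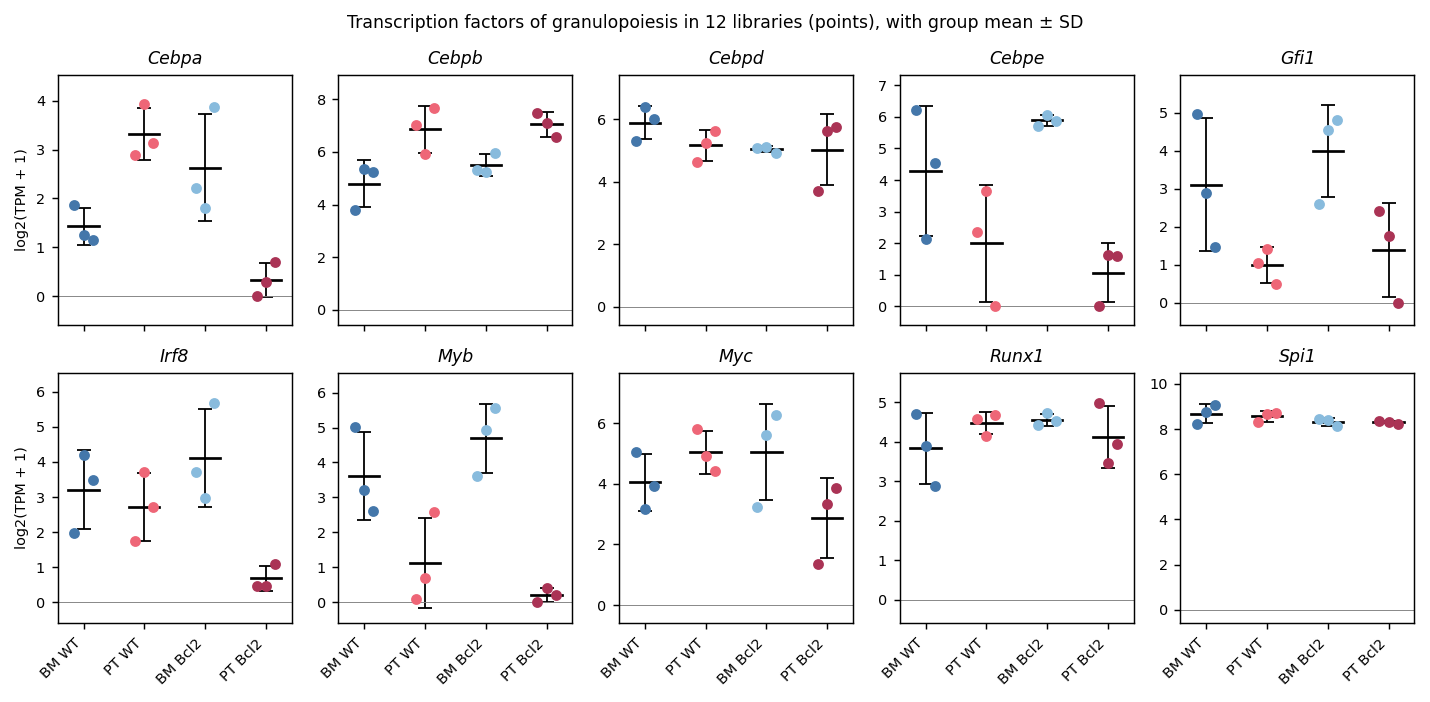
Level of each transcription factor gene, log2(TPM + 1), in the 12 libraries (points) of the 4 groups, with group mean (bar) and SD (whisker). In both genotypes the 3 PT points of Cebpb lie above the 3 BM points and those of Gfi1 and Myb below, and Cebpa moves in opposite directions in the 2 genotypes.

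The strictest reading of the values, with no fit, asks whether all 3 PT libraries lie on one side of all 3 BM libraries in both genotypes. Above BM in this sense was 1 member, Cebpb, beside 3.28% of all tested genes, and below BM were 2, Gfi1 and Myb, beside 5.45%.

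Cebpb (chromosome 2, 167688915-167690418, plus strand, GRCm38) is a gene without introns that encodes C/EBPβ. It had 12.7, 40.0 and 37.1 TPM in BM WT (libraries 4, 5 and 6) and 128, 59.1 and 201 TPM in PT WT (libraries 10, 11 and 12). In BM Bcl2 it had 38.3, 36.5 and 62.0 TPM (libraries 1, 2 and 3), and in PT Bcl2 179, 136 and 93.6 TPM (libraries 7, 8 and 9). Every PT library exceeded every BM library of its genotype, although library 11 (59.1 TPM) lay just under the highest BM Bcl2 library (62.0 TPM). The change was 1.81 ± 0.43 (SE) over both genotypes (adjusted p = 0.00966), 2.20 above the median of all genes. It was 2.07 ± 0.61 in WT (adjusted p = 0.0856) and 1.55 ± 0.61 in Bcl2 (adjusted p = 0.0798). Without library 9 the mean change was 1.93 (adjusted p = 0.0116). The gene's exon overlaps by 312 bp an exon of Tmem189 on the opposite strand, whose own TPM ran from 0.625 to 26.0 in BM and from 22.0 to 141 in PT; reads of the shared stretch cannot be assigned to either strand with an unstranded kit.

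Cebpe (chromosome 14, 54710360-54712174, minus strand, GRCm38) encodes C/EBPε, needed for secondary granule genes and the last steps of maturation. It had 73.9, 3.40 and 22.2 TPM in BM WT and 4.14, 11.6 and 0 TPM in PT WT, so the WT groups overlapped through library 5. In BM Bcl2 the values were close together, 51.4, 66.0 and 58.0 TPM, and in PT Bcl2 they were 0, 2.08 and 2.02 TPM. A read on Cebpe was worth 0.259 to 1.219 TPM, and a value of 0 allows up to 3 reads, which is 0.98 TPM in library 12 and 2.44 TPM in library 7. Cebpe fell by 3.55 ± 0.74 over both genotypes (adjusted p = 0.00452) and in Bcl2 fell by 4.81 ± 1.05 (adjusted p = 0.00699). In WT the change was -2.29 ± 1.05 (adjusted p = 0.29), and the difference between genotypes, -2.52 (95% interval -5.67 to 0.63), had an adjusted p of 0.378. Without library 9 the Bcl2 value was -5.07 (adjusted p = 0.0133), and it missed the threshold when libraries were centred on their medians (-3.22, adjusted p = 0.0529).

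Cebpa (chromosome 7, 35119293-35121928, plus strand, GRCm38) encodes C/EBPα, required for the step from common myeloid progenitors to granulocyte and monocyte progenitors. It had 2.65, 1.39 and 1.23 TPM in BM WT and 6.39, 14.2 and 7.84 TPM in PT WT. In BM Bcl2 it had 3.63, 2.51 and 13.6 TPM, the last in library 3, and in PT Bcl2 0, 0.214 and 0.613 TPM. Within WT every PT library was therefore above every BM library, and within Bcl2 every PT library was below. The PT Bcl2 values are at or under 3 reads, which are worth 1.01, 0.65 and 0.63 TPM in these libraries on the longest transcript. The change was 1.89 ± 0.72 in WT (adjusted p = 0.195). In Bcl2 Cebpa fell by 2.31 ± 0.72 (adjusted p = 0.0357), a call lost without library 3 (-1.69, adjusted p = 0.157), without library 9 (-2.49, adjusted p = 0.0522) and with centring (-0.72, adjusted p = 0.475).

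Cebpd (chromosome 16, 15887286-15891031, plus strand, GRCm38) encodes C/EBPδ, an inducible family member of the acute phase. It had 38.6, 82.0 and 62.7 TPM in BM WT, 23.7, 37.1 and 47.9 TPM in PT WT, 33.1, 33.7 and 29.5 TPM in BM Bcl2, and 12.1, 48.2 and 52.3 TPM in PT Bcl2. The groups of the 2 tissues overlapped in both genotypes, and the mean change was -0.38 (95% interval -1.31 to 0.56, adjusted p = 0.576), 0.02 from the median of all genes. Its exons overlap by 562 bp those of Spidr on the opposite strand, at 1.57 to 41.5 TPM.

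Within a library the shares of the 4 C/EBP genes in their summed TPM do not depend on scaling, and TPM is per length. Cebpb contributed 9.9 to 38.0% of their summed TPM in the 6 BM libraries and 48.4 to 93.7% in the 6 PT libraries, with no overlap. Cebpe contributed 2.7 to 57.8% in BM and 0 to 9.5% in PT, and the overlap came from library 5, where Cebpd made up 64.7%. The summed TPM itself was 123 to 163 in BM and 122 to 257 in PT. The log2 ratio of Cebpb to Cebpe, each as TPM + 1, ran from -2.45 to 3.22 in BM and from 2.25 to 5.48 in the 4 PT libraries with Cebpe above 0. In libraries 7 and 12, where Cebpe was listed at 0, it is set by the pseudocount. The ratio of Cebpb to Cebpa, taken in the same way, ran from 1.91 to 4.10 in BM WT, from 1.98 to 4.51 in PT WT and from 2.11 to 3.42 in BM Bcl2. None is given for PT Bcl2, where Cebpa rested on an estimated 3 reads or fewer in each library, as it also did in library 5 of BM WT. These shares and ratios are descriptions and were not tested.

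**Figure D2:**
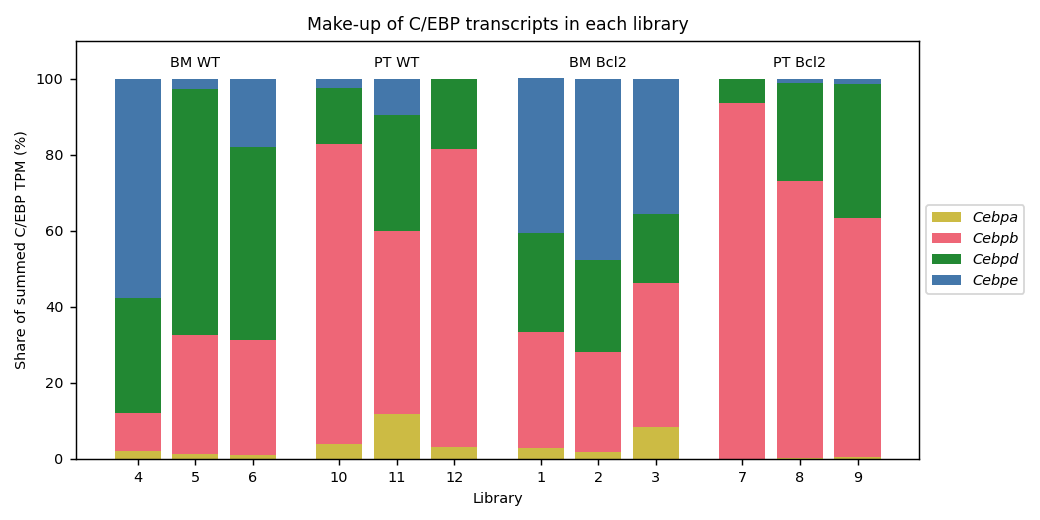
Share of the summed TPM of Cebpa, Cebpb, Cebpd and Cebpe (percent) that each gene contributed in the 12 libraries, grouped by tissue and genotype. Cebpb makes up 48.4 to 93.7% in PT and 9.9 to 38.0% in BM, and Cebpe up to 57.8% in BM.

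Myb (chromosome 10, 21124935-21160984, minus strand, GRCm38) encodes a factor that keeps progenitors dividing and is shut off as granulocytes mature. It had 31.6, 8.32 and 5.14 TPM in BM WT and 0.080, 0.633 and 4.98 TPM in PT WT. In BM Bcl2 it had 11.3, 29.3 and 45.9 TPM, and in PT Bcl2 0, 0.321 and 0.153 TPM. All 6 PT libraries lay below all 6 BM libraries, the closest being library 12 (4.98 TPM) and library 6 (5.14 TPM). Myb fell by 3.49 ± 0.62 over both genotypes (adjusted p = 0.00157), 3.10 below the median of all genes, and in Bcl2 fell by 4.50 ± 0.87 (adjusted p = 0.00421). In WT the change was -2.49 ± 0.87 (adjusted p = 0.153). The 3 PT Bcl2 values are under the 0.70, 0.45 and 0.43 TPM that 3 reads are worth on its longest transcript, so the size of the fall in Bcl2 rests on counts near 0. Without library 9 it was -4.50 (adjusted p = 0.0106).

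Gfi1 (chromosome 5, 107716657-107726036, minus strand, GRCm38) encodes a zinc-finger repressor that restrains monocyte genes in granulocyte precursors. It had 30.0, 6.33 and 1.77 TPM in BM WT and 1.06, 1.68 and 0.403 TPM in PT WT. In BM Bcl2 it had 5.02, 22.4 and 27.0 TPM, and in PT Bcl2 4.31, 2.35 and 0 TPM. The groups did not overlap within either genotype, though by little: 1.77 against 1.68 TPM in WT and 5.02 against 4.31 TPM in Bcl2. Gfi1 fell by 2.36 ± 0.69 over both genotypes (adjusted p = 0.0272), but the call was lost without library 2, 3, 4, 9, 10 or 12 (-2.37 to -1.89, adjusted p 0.051 to 0.0691) and under all 3 other scalings (-2.15 to -1.67, adjusted p 0.0584 to 0.0775). It was not called in WT (-2.11 ± 0.97, adjusted p = 0.295) or in Bcl2 (-2.60 ± 0.97, adjusted p = 0.0684). A430072P03Rik, which overlaps Gfi1 by 101 bp on the opposite strand, had 33.4 TPM in library 4, where Gfi1 was highest, and at most 1.06 TPM elsewhere.

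The windows from 250 bases before to 50 after the annotated start (RefSeq, GRCm38.p6) are shown for the 3 members whose PT libraries lay on the same side of all BM libraries in both genotypes: Cebpb at chr2:167688665-167688964 (plus strand), Gfi1 at chr5:107725756-107726055 (minus strand) and Myb at chr10:21160935-21161234 (minus strand). RefSeq gave such windows for 6 of the 10 members, and the Gfi1 start lies 231 bases from the GENCODE gene start. Capitals mark letters matching, on either strand, C/EBP (TTGCNNAA), the core of the cAMP response element (TGACG), RUNX (TGTGGT), PU.1 (GAGGAA), the E-box (CACGTG) or E2F (TTTNGCG), the last added after the Myb window had been read.
Cebpb: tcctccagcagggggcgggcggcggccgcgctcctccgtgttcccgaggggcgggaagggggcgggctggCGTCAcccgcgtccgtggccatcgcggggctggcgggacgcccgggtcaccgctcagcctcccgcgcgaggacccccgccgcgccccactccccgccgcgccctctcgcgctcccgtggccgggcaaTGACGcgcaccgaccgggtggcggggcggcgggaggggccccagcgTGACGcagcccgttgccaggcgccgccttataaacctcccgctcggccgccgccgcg
Gfi1: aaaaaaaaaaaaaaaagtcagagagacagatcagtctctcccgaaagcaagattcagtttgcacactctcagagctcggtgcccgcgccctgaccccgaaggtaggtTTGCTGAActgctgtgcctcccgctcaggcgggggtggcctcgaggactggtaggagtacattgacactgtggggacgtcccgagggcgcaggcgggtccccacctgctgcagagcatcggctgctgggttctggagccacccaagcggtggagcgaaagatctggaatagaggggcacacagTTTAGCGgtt
Myb: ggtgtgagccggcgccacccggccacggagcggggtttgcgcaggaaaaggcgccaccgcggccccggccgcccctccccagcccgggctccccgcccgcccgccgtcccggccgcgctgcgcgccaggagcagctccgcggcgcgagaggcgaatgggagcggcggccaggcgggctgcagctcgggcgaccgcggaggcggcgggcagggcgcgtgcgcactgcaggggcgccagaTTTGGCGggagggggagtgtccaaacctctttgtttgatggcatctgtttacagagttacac
The Cebpb window holds the cAMP response core 3 times, 180, 53 and 7 bases before the start, and 20.8% of the 32851 mouse windows in the RefSeq table hold it at least once. The Gfi1 window holds the C/EBP letters 143 bases before the start (10.8% of windows) and the E2F letters after it (4.22%), and the Myb window holds the E2F letters 12 bases before the start. Of the other windows, that of Runx1 holds RUNX letters 2 times (16.8% of windows) and an E-box (7.15%), and those of Cebpa and Irf8 hold none of the 6. The PU.1 letters, in 28.3% of windows, are in none of the 6 members' windows. A match is a run of letters and not a measured site.

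Irf8 (chromosome 8, 120736358-120756694, plus strand, GRCm38) encodes a factor that favours monocytes and dendritic cells over granulocytes. It had 2.92, 17.4 and 10.1 TPM in BM WT and 2.35, 12 and 5.59 TPM in PT WT, which overlap widely. In BM Bcl2 it had 12.1, 6.81 and 49.9 TPM, and in PT Bcl2 0.394, 0.393 and 1.12 TPM, below every other library. Library 3, the highest, also had the most Ccr2 (213 TPM, against 4.47 to 47.2 TPM in the others). The summed TPM of 7 monocyte and dendritic cell markers was 1414 there, against 376 to 1039 in the other BM libraries and 41.7 to 104 in PT. Of that sum in library 3, Ly6c2 alone had 1187 TPM. Cx3cr1 (2.21 TPM), Siglech (9.02 TPM), Zbtb46 (1.59 TPM) and Clec9a (0 TPM) were not highest in library 3. They reached 12.1, 16.4, 5.4 and 19.5 TPM in other libraries. The part of monocytes in the Irf8 values was not tested. Irf8 fell by 3.43 ± 0.87 in Bcl2 (adjusted p = 0.0144), a call lost without library 3 (-2.65, adjusted p = 0.0796) and kept without library 9 (-3.64, adjusted p = 0.0244). In libraries 7 and 8 of PT Bcl2 Irf8 was under the 0.75 and 0.48 TPM that 3 reads are worth on its longest transcript. The size of the fall in Bcl2 therefore rests in part on counts near 0. Over both genotypes Irf8 fell by 1.96 ± 0.62 (adjusted p = 0.0375), which was lost without library 3, 5, 6, 7, 8, 10 or 12 (-1.96 to -1.57, adjusted p 0.0561 to 0.103). It was also lost under all 3 other scalings (-1.59 to -1.26, adjusted p 0.125 to 0.182). In WT the change was -0.49 ± 0.87 (adjusted p = 0.827). The log2 ratio of Gfi1 to Irf8, each as TPM + 1, ran from -2.0 to 2.98 in BM and from -2.28 to 1.93 in PT, with wide overlap.

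Spi1 (chromosome 2, 91082390-91115756, plus strand, GRCm38) encodes PU.1, which activates myeloid receptor genes. It was the highest of the 10 in every group, at 297, 427 and 530 TPM in BM WT, 313, 406 and 416 TPM in PT WT, 343, 336 and 278 TPM in BM Bcl2, and 322, 320 and 302 TPM in PT Bcl2. The tissues overlapped in both genotypes. The mean change was -0.06 with a 95% interval of -0.68 to 0.56 (adjusted p = 0.899), the narrowest of the members. Relative to the median of all genes it was 0.33 higher, and its direction turned with centring (0.62) and with homopolymer genes left out (0.58).

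Runx1 (chromosome 16, 92601466-92826149, minus strand, GRCm38) encodes the DNA-binding subunit of core binding factor. It had 25.2, 13.9 and 6.43 TPM in BM WT, 23.1, 16.8 and 24.5 TPM in PT WT, 20.5, 25.4 and 22.1 TPM in BM Bcl2, and 30.7, 10 and 14.3 TPM in PT Bcl2. No tissue or genotype stood apart, and the mean change was 0.10 (95% interval -0.86 to 1.06, adjusted p = 0.894). Cbfb, the partner subunit, fell by 1.75 over both genotypes (adjusted p = 0.0448) and was not called with any of the other scalings.

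Myc (chromosome 15, 61985391-61990374, plus strand, GRCm38) encodes a factor of growth and division that pairs with MAX. It had 32.0, 8.06 and 14.3 TPM in BM WT and 54.3, 28.9 and 20.2 TPM in PT WT. In BM Bcl2 it had 8.51, 48.0 and 76.3 TPM, and in PT Bcl2 1.58, 9.12 and 13.6 TPM. The tissues overlapped in both genotypes, and every PT Bcl2 library was below every PT WT library. The change was 0.98 ± 0.88 in WT (adjusted p = 0.629) and -2.19 ± 0.88 in Bcl2 (adjusted p = 0.0864), the latter called without library 1 (-3.08, adjusted p = 0.0235). Of 10 MYC target genes 3 were called lower and 0 higher over both genotypes, with a median of -0.99, and with each library centred 0 were called. Of the MAX partners that oppose MYC, Mxd1 rose by 1.85 (adjusted p = 0.011) under every scaling tried, and Mxi1 fell by 1.87 (adjusted p = 0.0159) with TPM as deposited and was not called under the other scalings. A further partner, Mnt, was not called (0.58, adjusted p = 0.656).

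**Figure D3:**
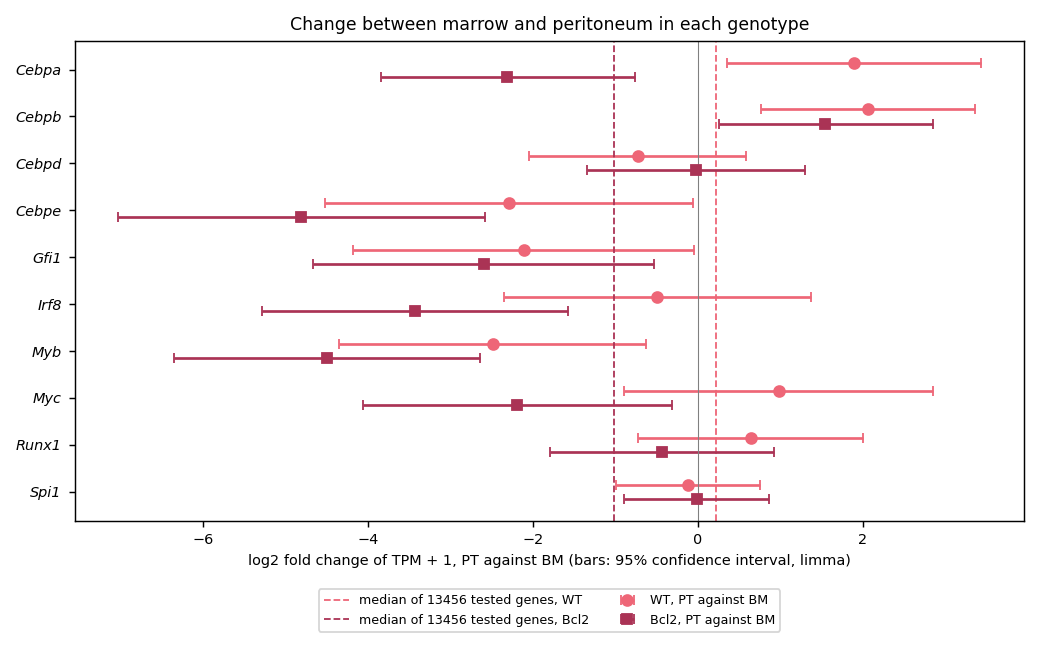
Fitted log2 fold change of TPM + 1, PT against BM, of the 10 genes in WT (circles) and Bcl2 (squares) with 95% confidence intervals; dashed lines mark the median of all tested genes, 0.22 in WT and -1.02 in Bcl2. Cebpb and Runx1 lie right of both medians, Cebpe, Gfi1, Irf8 and Myb left of both, and the intervals of Cebpa do not meet.

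The BM libraries were unlike one another in the genes of dividing precursors. Libraries 4, 2 and 3 had Myb at 31.6, 29.3 and 45.9 TPM, Gfi1 at 30.0, 22.4 and 27.0 TPM and Myc at 32.0, 48.0 and 76.3 TPM, and libraries 5, 6 and 1 had each of these lower, at most 11.3, 6.33 and 14.3 TPM. Mki67, a marker of dividing cells, was 295, 371 and 466 TPM in the former and 62.7, 98.1 and 159 TPM in the latter. The summed TPM of 4 primary granule genes, made in promyelocytes, was 3160, 3567 and 8196 in libraries 4, 2 and 3 and 446, 1034 and 1590 in libraries 5, 6 and 1. Both sets of libraries include both genotypes, and Cebpe was high in library 1 (51.4 TPM) as well. The part of marrow composition in the values of Myb, Gfi1 and Myc was not tested.

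**Figure D4:**
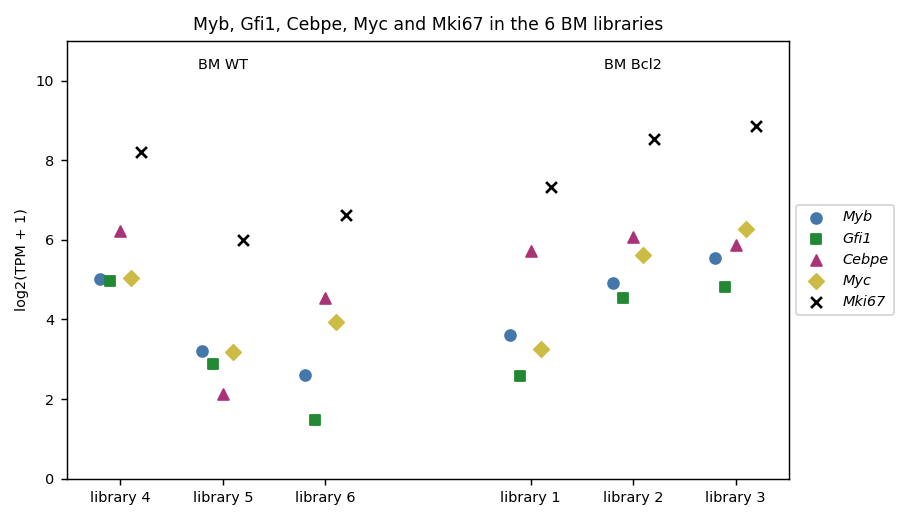
log2(TPM + 1) of Myb, Gfi1, Cebpe, Myc and the division marker Mki67 in the 6 BM libraries, 3 of each genotype. Libraries 4, 2 and 3 are high in Myb, Gfi1, Myc and Mki67 and libraries 5, 6 and 1 low.

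The transgene was asked about within each tissue. Between Bcl2 and WT in BM, 0 members were called by limma, beside 0.0223% of all tested genes, and none had an unadjusted p under 0.05; the changes ran from -0.85 (Cebpd) to 1.59 (Cebpe), with a median of all genes of 0.49. Between Bcl2 and WT in PT, 0 members were called, beside 0.0297% of all tested genes, and 3 were lower at an unadjusted p under 0.05. These were Cebpa (-2.99 ± 0.72, adjusted p = 0.157), Myc (-2.17 ± 0.88, adjusted p = 0.339) and Irf8 (-2.04 ± 0.87, adjusted p = 0.355), where the median of all genes was -0.67. At an unadjusted p under 0.05 and at least 2-fold, 1647 of the 13456 tested genes were lower in this comparison and 60 higher. The difference of the tissue change between genotypes was called for 0 members, beside 0.0149% of all tested genes. The same 3 genes had an unadjusted p under 0.05, Cebpa at -4.20 ± 1.02 (adjusted p = 0.192), Myc at -3.17 ± 1.24 (adjusted p = 0.258) and Irf8 at -2.94 ± 1.23 (adjusted p = 0.266), with a median of all genes of -1.18. Of all tested genes 2230 were lower and 49 higher in this difference at an unadjusted p under 0.05. Without library 9 the counts of called members in these 3 comparisons were also 0. The last 2 of these comparisons share the PT Bcl2 libraries, so they do not stand for separate evidence.

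Of 38 other regulators of granulopoiesis, 35 were tested, and over the mean of both genotypes 7 were called higher and 6 lower, beside 5.13% and 14.1% of all tested genes, with a median change of -0.19 against -0.40 over all tested genes. The largest changes among those called were in Egr1, Ets2, Trib1, Klf5, Mybl1 and Rara. Trib1, which encodes a pseudokinase that promotes breakdown of C/EBPα protein, rose by 2.57 ± 0.67 (adjusted p = 0.0155). Ets2, an ETS family factor, rose by 2.68 ± 0.55 (adjusted p = 0.00427). Egr1, an immediate early factor, rose by 2.86 ± 0.79 (adjusted p = 0.0214), with 1231 TPM in library 12 against 18.8 to 55.4 TPM in the other PT libraries. Rara, the retinoic acid receptor of granulocyte maturation, rose by 2.06 ± 0.43 (adjusted p = 0.00494). These 4 stayed called under the other scalings. Klf5, a zinc-finger factor, fell by 2.47 ± 0.75 (adjusted p = 0.0316), and Mybl1, a relative of Myb, fell by 2.25 ± 0.52 (adjusted p = 0.00801). Both kept their direction, but Klf5 lost its call with centring and with homopolymer genes left out, and Mybl1 after quantile normalization. Under the 3 other scalings 9, 9 and 10 of the list were called higher and 1, 2 and 1 lower.

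Genes that these factors control moved as follows over both genotypes. All 4 primary granule genes and 5 of 6 secondary and tertiary granule genes were called lower, led by Mpo (myeloperoxidase, -7.07 ± 0.49, adjusted p = 1.38e-06) and Camp (cathelicidin, -7.17 ± 0.39, adjusted p = 1.46e-07). Csf3r, the receptor of granulocyte colony-stimulating factor, rose by 2.66 ± 0.52 (adjusted p = 0.00301), the only one called of 5 growth factor receptor genes with TPM as deposited. With centring, quantile normalization and homopolymer genes left out, in that order, 3, 2 and 3 of the 5 were called higher, Il6ra under each of them and Csf2rb with centring and with homopolymer genes left out. Of 8 cycling genes 7 were called lower, with a median of -3.63.

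Of all tested genes, those whose log2(TPM + 1) followed a member most closely over the 12 libraries are given as a description, since the libraries share tissue, depth and scaling. Nearest to Myb were Ckap2l (Pearson r = 0.983) and Usp1 (0.982), and nearest to Cebpe were Cenpk (0.951) and Cdca8 (0.942), among which Ckap2l, Cenpk and Cdca8 encode proteins of the mitotic spindle or kinetochore. Nearest to Gfi1 were Nup93 (0.965) and Tipin (0.958). Nearest to Cebpb were Pla1a (0.922) and Csf2rb2 (0.919), the latter a receptor subunit for interleukin-3. Nearest to Cebpa were 3110040N11Rik (0.965) and E130311K13Rik (0.932), and to Irf8 Atg4d (0.943) and Khk (0.935). Runx1 was nearest to Ppm1d (0.949) and Sbno1 (0.948), Myc to Rmi1 (0.915) and Mrps7 (0.914), Spi1 to Lhx1 (0.929) and Ocstamp (0.925), and Cebpd to Lst1 (0.881) and Avl9 (0.856).

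Ordered by mean TPM, the 10 members ran in BM WT from Spi1 (418 ± 117, SD, n = 3) through Cebpd (61.1 ± 21.7), Cebpe (33.1 ± 36.5) and Cebpb (29.9 ± 15.0) to Cebpa (1.75 ± 0.778). Between the highest and the lowest, neighbours in this order overlapped. In PT WT Cebpb was second at 129 ± 71.0 TPM, apart from both Spi1 (378 ± 56.7) and Cebpd (36.2 ± 12.1), and Myb and Gfi1 were last at 1.90 ± 2.68 and 1.05 ± 0.639 TPM. In BM Bcl2 Cebpe was second at 58.4 ± 7.29 TPM and overlapped Cebpb (45.6 ± 14.2). In PT Bcl2 Cebpb was second at 136 ± 42.9 TPM, apart from its neighbours, and Gfi1, Cebpe, Irf8, Cebpa and Myb, with means from 2.22 down to 0.158 TPM, overlapped in their order.

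**Figure D5:**
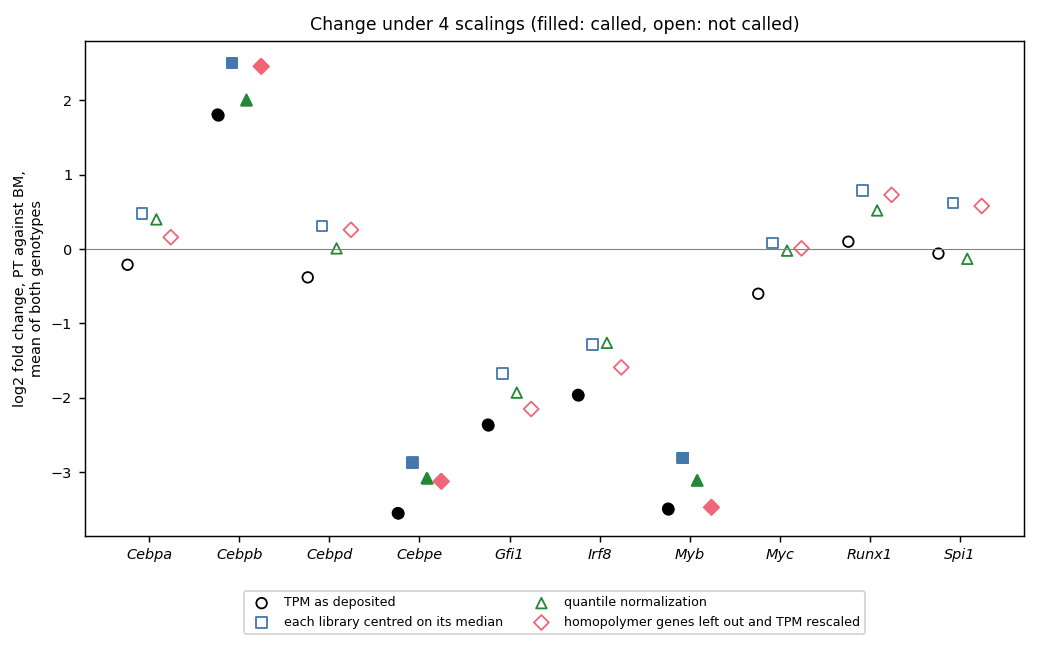
log2 fold change, PT against BM over the mean of both genotypes, of the 10 genes with TPM as deposited and under 3 other scalings; filled symbols are called and open symbols are not. Cebpb, Cebpe and Myb are filled throughout, Gfi1 and Irf8 only with TPM as deposited, and Cebpa, Cebpd, Myc and Spi1 change sign.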

How the data were processed

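RNA of sorted neutrophils was sequenced by the authors from amplified cDNA, and each of the 12 libraries was placed in its group by its column name. The authors ran AltAnalyze at default values and deposited log2(TPM + 1) per gene and library; its version and the genome build were not given in the sources used here. The deposited linear TPM averages equal the means of the library columns and served as a check. The authors' own fold changes, p-values, correlations and lineage scores were not used, nor were 2 columns of per-sample values that name no sample. The 10 members and all gene lists were chosen with earlier results of these data known.

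Gene coordinates came from GENCODE M21 (GRCm38) by Ensembl gene ID. All 4 groups entered 1 fit of limma 3.58.1 (R 4.3.3, eBayes with trend, 8 residual degrees of freedom). The fit took the 13456 genes that reached 1 TPM in 3 or more libraries, and a pseudocount of 1 understates changes of low genes. A gene was called at an adjusted p under 0.05 and at least 2-fold, and for the difference between genotypes at the adjusted p alone. The study's methods describe marrow and peritoneal cells as sorted mouse by mouse, so BM and PT libraries may share animals. No column ties a library to a mouse, and the fit treated all 12 libraries as independent. The p-values therefore measure the spread between these libraries. The fit was tested on simulated data.

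TPM keeps no read totals. How much TPM a read is worth was read off the steps between low values in 5021 genes with 1 transcript of at least 800 nt, after taking 255 nt off the length; 71.1 to 82.0% of low values lay within 0.15 of a whole read. Limits of 3 reads cover counting error only. Named genes of other lists were those called over the mean of both genotypes with the largest change (up to 6 regulators, up to 3 of other lists), and the 2 genes with the highest Pearson r for each member. Cbfb, Mxd1, Mxi1, Mnt, Mki67, Ccr2, S100a8, S100a9, Csf3r, Il6ra, Csf2rb, Ly6g, Kit, Cd27 and Cd3d, the genes overlapping members and the marker genes said to be low were named besides. So were Ly6c2, Cx3cr1, Siglech, Zbtb46, Clec9a and Ldha. Alternatives were another pseudocount, 2 filters, 3 scalings (centring on the median, quantile normalization, homopolymer genes left out), a fit without trend, fits of only the groups compared, protein-coding genes, 2 thresholds and leaving out each library.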

Additional observations from a re-analysis of the deposited data

Results flagged for a closer look

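Cebpa was singled out because its PT libraries lay above all BM libraries in WT (6.39 to 14.2 against 1.23 to 2.65 TPM) and below all BM libraries in Bcl2 (0 to 0.613 against 2.51 to 13.6 TPM). The share of all tested genes with this pattern was not counted. The PT Bcl2 values were at or under 3 reads, worth 1.01, 0.65 and 0.63 TPM in libraries 7, 8 and 9. The tissue change in Bcl2 minus that in WT was -4.20 on the log2 scale (unadjusted p = 0.000953, adjusted p = 0.192 by limma with Benjamini-Hochberg adjustment), so it did not pass correction over all tested genes. The median of this difference over all genes was -1.18, which leaves -3.02 for Cebpa. No group of 3 libraries was examined for outliers.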

How the results depend on the processing

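No paired analysis was possible because the columns carry no replicate number. Of 815 values of single members under alternatives, 723 kept their direction and their side of the threshold; 38 lost and 22 gained a call, and 32 turned direction. The cause was not tested. The calls of Cebpb (higher), Cebpe and Myb (lower) over both genotypes held under every alternative run, and those of Gfi1 and Irf8 did not. Among members called lower over both genotypes, 4 became 2 with no filter on low values, centring, quantile normalization, homopolymer genes left out or an adjusted p under 0.01, and 2 to 4 without each library in turn (2 without library 3, 10 or 12). Over all tested genes 1891 such calls became 1446 with no filter, 862 with centring and 1249 after quantile normalization. They became 929 with homopolymer genes left out and 773 at an adjusted p under 0.01. Among members called lower in Bcl2, 4 became 1 with centring, 2 after quantile normalization or at an adjusted p under 0.01, and 2 to 6 without each library (2 without library 3, 6 without library 1). Over all tested genes 2567 became 467 with centring, 779 after quantile normalization and 818 at an adjusted p under 0.01. They became 1072 without library 3 and 2604 without library 1. Cebpb brought the members called higher in Bcl2 from 0 to 1 with centring, quantile normalization, homopolymer genes left out and an unadjusted p under 0.05. Over all tested genes 311 higher calls in Bcl2 became 1636, 678, 543 and 609, in that order. In WT 1 member (Cebpb, 2.62, adjusted p = 0.016) was called higher with homopolymer genes left out, where the higher calls over all tested genes went from 214 to 489. An unadjusted p under 0.05 gave 2 higher and 3 lower in WT, 3 lower for the difference between genotypes and 3 lower for Bcl2 against WT in PT. Over all tested genes it gave 1371, 850, 2230 and 1647, in that order.

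Directions turned only for changes that were not called. With centring, quantile normalization and homopolymer genes left out, in that order, the change in Bcl2 was 1.57, 0.87 and 0.72 for Cebpd, 1.58, 0.10 and 0.74 for Spi1 and 1.16, 0.55 and 0.28 for Runx1, and over both genotypes 0.48, 0.40 and 0.16 for Cebpa and 0.31, 0.01 and 0.26 for Cebpd. With centring and homopolymer genes left out, it was 0.62 and 0.58 for Spi1 and 0.08 and 0.01 for Myc over both genotypes, and 0.43 for Spi1 in WT with the latter. Without each library in turn, Spi1 ran from -0.34 to 0.08 in WT, from -0.11 to 0.04 in Bcl2 and from -0.18 to 0.03 over both genotypes, Cebpd from -0.38 to 0.63 in Bcl2, and over both genotypes Cebpa from -0.41 to 0.10 and Runx1 from -0.13 to 0.32. The log2 ratio of Gfi1 to Irf8 (each as TPM + 1), PT minus BM, was -0.39 and ran from -0.87 to 0.38.

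The scaling also moved the share of calls that were higher over all tested genes: 26.7% over both genotypes with TPM as deposited (690 higher and 1891 lower), against 67.0% with centring (1752 and 862), 49.7% after quantile normalization (1233 and 1249) and 57.0% with homopolymer genes left out (1231 and 929). In Bcl2 these shares were 10.8%, 77.8%, 46.5% and 33.4%, and in WT 56.6%, 36.2%, 46.9% and 81.6%. Leaving out homopolymer genes moved 22 of 40 group means of the members by over 1 SD. Depth limits Cebpa, Cebpe, Irf8 and Myb in PT Bcl2, which rest on a few reads.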
